A study of Mus musculus with 86 samples.

Results

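The regions described here are the stretches of the mouse genome where peaks of SOX2 and of CTCF overlapped in asynchronous embryonic stem cells. For each factor, overlapping peaks of both asynchronous libraries were merged, and a merged region was kept if it held a peak of each library. This gave 51672 SOX2 regions and 57992 CTCF regions. A SOX2 region was a member, called a shared region below, if it had at least 1 bp in common with a CTCF region. There were 10497 shared regions, which is 20.3% of all SOX2 regions, and they touched 10594 CTCF regions, which is 18.3% of all CTCF regions. Without asynchronous SOX2 replicate 2, which has the shorter list, the same rule gave 17846. The other 41175 SOX2 regions and 47398 CTCF regions are called SOX2-only and CTCF-only. The members were chosen by the peaks of the asynchronous libraries, so the overlap itself and the strength of the asynchronous peaks are given as description and without a test.

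The study profiled chromatin of mouse embryonic stem cells of strain 129S5/SvEvBrd by ChIP-seq, and 8 of its 86 libraries are used here. The mitotic groups, with 2 SOX2 and 2 CTCF libraries, came from cells held for 6 h in 100 ng/ml nocodazole, a drug that blocks the assembly of microtubules, and then shaken off the dish. The asynchronous groups, also 2 SOX2 and 2 CTCF libraries, were untreated. All cells grew on gelatin in medium with serum and LIF. SOX2 was precipitated with antibody AF2018 from R&D Systems and CTCF with antibody ab70303 from Abcam. Whether the replicates are separate cultures is not in the labels, and their p-values may then measure technical spread alone. They do not give the purity of the mitotic cells. Peak lists hold no expression values, so the cell type was not checked against its markers. The libraries of 7 histone marks and the input libraries were not analysed here.

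SOX2 is a transcription factor with an HMG box that bends DNA in the minor groove and, together with OCT4, maintains the pluripotent state. CTCF is a zinc finger protein that binds a long motif, stops loop extrusion by cohesin and thereby sets loop anchors and domain borders. During mitosis many factors leave the condensed chromosomes, and a factor that stays at some of its sites is said to bookmark them.

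Each library came with its own peak list, and a region counts as called in a list when a peak of that list covers at least 1 bp of it. For mitotic CTCF, a shared region counts as called when any CTCF region that overlaps it is called. That peak need not touch the shared region itself. The mitotic SOX2 lists held 1976 and 408 peaks and the asynchronous SOX2 lists 90266 and 63504. The mitotic CTCF lists held 20142 and 15338 peaks and the asynchronous CTCF lists 68328 and 67995. Read totals were not used here. The background coverage that follows from the fold and p-value of each peak was 2.62 and 1.64 reads per 100 bp in the mitotic SOX2 libraries and 2.48 and 1.61 in the asynchronous ones. It was 3.62 and 3.77 in the mitotic CTCF libraries and 3.36 and 3.71 in the asynchronous ones. The SOX2 libraries were thus shallower than the CTCF libraries, and within SOX2 the second replicate of each condition was the shallower one. A region that was not called is below the threshold of its list and is not shown to be free of the factor.

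The promoter sequence of 5 genes shows what some shared regions at promoters look like at base level. Only 24.7% of shared regions lay within 1 kb of the start of a protein-coding gene, so these examples do not stand for the others. Sequence outside promoters was not searched. Each window is the 250 bases before the start of a gene, from RefSeq on GRCm38.p6, the assembly of mm10, written 5′ to 3′ on the strand of the gene, and each holds the summits of both factors. 4 letter patterns were searched on both strands and are in capitals where they matched: CCNNNAGNNGGC, a core of the CTCF motif, AACAANG, the motif of SOX proteins, TGCATNACAA, a joined OCT and SOX motif, and GGTTCGANNCC, the B box inside tRNA genes to which the RNA polymerase III factor TFIIIC binds. The patterns were chosen with these data known. Each of the first 4 windows belongs to the strongest shared region of its kind, by asynchronous fold, among those with both summits in a promoter window that could be printed. Polr3e, the 1 window of its kind, was called in all 4 mitotic lists, F930026P19Rik, 1 of 2 windows, in both mitotic SOX2 lists and neither mitotic CTCF list, Syngr1 in both mitotic CTCF lists and neither mitotic SOX2 list, and Bdh2 in none. Bbc3 had the strongest region whose window held both the CTCF and the SOX letters.
Polr3e: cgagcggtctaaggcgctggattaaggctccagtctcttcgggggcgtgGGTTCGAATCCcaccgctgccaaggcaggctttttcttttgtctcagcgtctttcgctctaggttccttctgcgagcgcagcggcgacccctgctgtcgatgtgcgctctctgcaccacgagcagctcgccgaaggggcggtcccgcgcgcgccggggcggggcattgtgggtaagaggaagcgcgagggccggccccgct
F930026P19Rik: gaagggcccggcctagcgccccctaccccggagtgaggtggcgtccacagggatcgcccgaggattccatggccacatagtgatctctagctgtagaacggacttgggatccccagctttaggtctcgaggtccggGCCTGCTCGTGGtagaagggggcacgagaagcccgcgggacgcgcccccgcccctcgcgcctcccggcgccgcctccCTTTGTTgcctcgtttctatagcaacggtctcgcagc
Syngr1: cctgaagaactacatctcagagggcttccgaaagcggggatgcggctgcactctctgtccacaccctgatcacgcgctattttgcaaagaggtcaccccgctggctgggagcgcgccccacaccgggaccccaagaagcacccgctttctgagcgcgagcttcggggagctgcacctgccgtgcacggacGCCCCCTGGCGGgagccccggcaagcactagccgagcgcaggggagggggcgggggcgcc
Bdh2: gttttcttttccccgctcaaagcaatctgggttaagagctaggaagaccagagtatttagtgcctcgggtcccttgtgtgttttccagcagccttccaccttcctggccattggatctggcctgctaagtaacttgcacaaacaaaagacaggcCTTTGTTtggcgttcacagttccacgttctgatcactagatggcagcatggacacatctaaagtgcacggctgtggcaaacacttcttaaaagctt
Bbc3: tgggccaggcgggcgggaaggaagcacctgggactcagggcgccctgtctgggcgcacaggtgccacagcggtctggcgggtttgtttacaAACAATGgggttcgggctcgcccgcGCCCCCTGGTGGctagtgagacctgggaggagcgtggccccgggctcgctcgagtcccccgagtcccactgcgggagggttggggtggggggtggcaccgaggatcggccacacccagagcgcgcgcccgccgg

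The Polr3e window, chr7:120917528-120917777 on the plus strand, precedes a gene for a subunit of RNA polymerase III. It overlaps the tRNA gene n-TLaag4 at chr7:120917517-120917598, whose B box takes bases 50 to 60 of the window. The SOX2 summit lay at base 66, inside the tRNA gene, and the CTCF summit at base 135. No CTCF or SOX letters matched there. The region had a SOX2 fold over background of 6.96 and 4.74 in the mitotic libraries and 14.4 and 11.8 in the asynchronous ones. Its CTCF fold was 9.15 and 3.68 in the mitotic libraries and 12.4 and 13.1 in the asynchronous ones. All folds are the authors' own values for the summit of a peak and are comparable only within their list.

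In the F930026P19Rik window, chr12:113140141-113140390 on the minus strand, the 2 patterns lay apart, with the CTCF letters at bases 137 to 148 and the SOX letters at bases 214 to 220. The SOX2 summit at base 208 was next to the SOX letters, while the CTCF summit was at base 64. The Syngr1 window, chr15:80091084-80091333 on the plus strand, precedes the gene of a synaptic vesicle protein and had CTCF letters at bases 191 to 202. Its CTCF summit was at base 187 and its SOX2 summit at base 18. Here the CTCF fold was 13.8 and 6.79 in the mitotic libraries and 14.2 and 15.0 in the asynchronous ones, while SOX2, at 17.5 and 14.3 in the asynchronous libraries, was not called in mitosis.

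The Bdh2 window, chr3:135280971-135281220 on the plus strand, had both summits at almost the same place, SOX2 at base 161 and CTCF at base 164, beside the SOX letters at bases 155 to 161. No CTCF letters matched in it, but the search required every fixed letter of the pattern. The stretch tcactagatggc of this window misses the pattern only in its first letter. In the Bbc3 window, chr7:16310011-16310260 on the plus strand, the SOX letters took bases 92 to 98 and the CTCF letters bases 117 to 128. The CTCF summit was at base 138 and the SOX2 summit at base 57. Bbc3, the gene of the apoptosis inducer PUMA, was called in both mitotic CTCF lists and in mitotic SOX2 replicate 1.

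Across all promoters the same patterns could be counted. Of 32817 windows, 271 held both summits of a shared region, and CTCF letters were in 30.6% of these (95% Wilson interval 25.4 to 36.4%). They were in 7.26% of the 1778 windows with the summit of a SOX2-only region, in 38.1% of the 895 with the summit of a CTCF-only region, in 4.41% of the windows without a region of either factor and in 7.16% of all windows. SOX letters were in 14.4% of the windows with both summits (10.7 to 19.1%), in 16.3% of the SOX2-only windows, in 5.81% of the CTCF-only windows and in 12.1% of all windows. CTCF letters were thus more frequent at shared than at SOX2-only promoters, and the interval of the SOX letters at shared promoters held the share of SOX2-only windows as well as the 13.1% of windows without a region and the share of all windows. Both patterns stood in 11 of the 271 windows, or 4.06% (2.28 to 7.12%), against 2.46% of the CTCF-only windows (1.63 to 3.69%), 0.731% of the SOX2-only windows and 0.539% of all windows. The intervals of the shared and the CTCF-only windows overlap. The joined OCT and SOX letters were in 1 of the 271 and in 0.265% of all windows, and the B box in 2 of the 271 and in 0.104% of all windows. The windows differ in composition, with a median G and C content of 64% at both summits, 58.8% at SOX2-only summits, 60.4% at CTCF-only summits and 52.4% over all windows. Its part in the counts was not tested.

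Where a window had a single match, the summit of the matching factor was the nearer one by median, though not in every window. The CTCF summit lay a median of 15.2 bp from the CTCF letters and the SOX2 summit 66 bp (74 windows). The CTCF summit was the nearer one in 51 of 74 windows. From SOX letters the CTCF summit lay a median of 65.2 bp and the SOX2 summit 37 bp (38 windows), and the CTCF summit was the nearer in 11 of 38. A match is a stretch of letters and does not show that a factor was bound to it. A window without a match may still hold a site that differs from the pattern in some letters.

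Overlap of the 2 factors was mostly deep, but their summits were usually not at the same base. The median overlap was 466 bp, or 99.1% of the shorter region, and in 49.2% of shared regions the shorter region lay wholly inside the longer. In 96.1% of shared regions a single CTCF region was touched. The summit of the strongest peak of each library, averaged over both libraries of a factor, put SOX2 and CTCF a median of 188.5 bp apart (quartiles 73.5 and 453.5 bp). Over the 4 pairs of a SOX2 and a CTCF library the median was 186 to 194 bp. Within a factor, the summits of replicates lay a median of 50 bp apart for SOX2 and 23 bp for CTCF in the same regions, so the distance between the factors was larger than the distance between replicates.

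**Figure D1:**
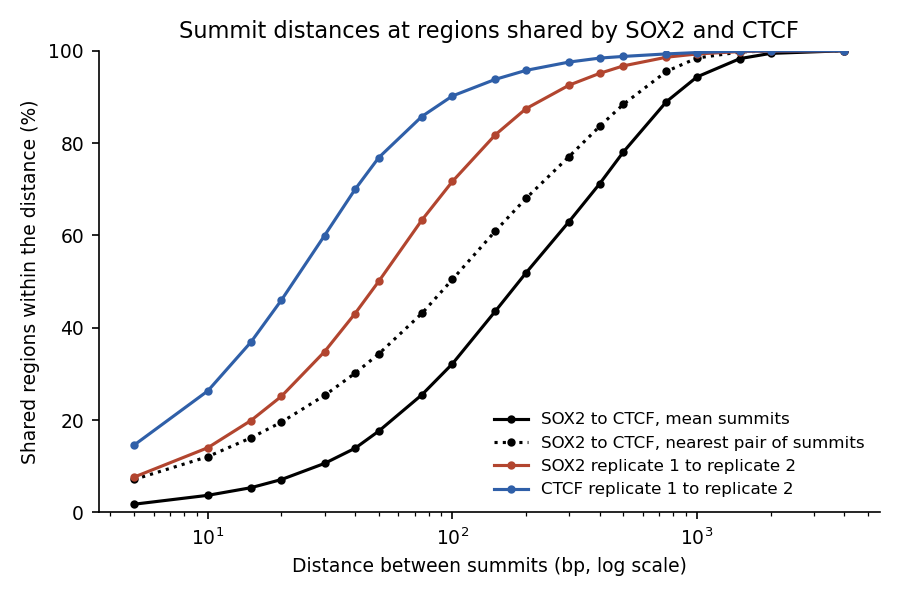
Share of shared regions (%) within a given distance between summits (bp, log scale). The black line for SOX2 to CTCF reaches 32.2% at 100 bp, against 71.7% for the red line of SOX2 replicates and 90.2% for the blue line of CTCF replicates, and the dotted line shows the nearest pair of any SOX2 and CTCF summit, with a median of 98 bp.

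Summits lay within 25 bp of each other in 945 shared regions, or 9.0%, and within 100 bp in 3379, or 32.2%. At the other end, 21.9% were over 500 bp apart. Region by region, the distance between the factors exceeded both replicate distances in 71.0% of shared regions, and it did so at over 100 bp in 58.3%. More than 1 SOX2 peak of the same library was merged into 14.9% of the regions and more than 1 CTCF peak into 8.19%, so a long distance can join neighbouring peaks. With the nearest pair of any 2 summits the median distance was 98 bp.

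Shared regions were wider than the others and lay near the middle of the lists in strength. Their median width was 776 bp, against 634 bp in SOX2-only regions, and the CTCF regions they touched were 750 bp wide, against 582 bp in CTCF-only regions. Strength is the percentile of a region's fold within an asynchronous list, averaged over both libraries. Its median was 54.3 in shared and 62.8 in SOX2-only regions for SOX2, and 60.3 in shared and 57.4 in CTCF-only regions for CTCF. In fold, SOX2 had medians of 4.78 and 4.49 in the 2 asynchronous lists at shared regions, against 5.43 and 4.97 at SOX2-only regions. The strengths of the 2 factors ran weakly against each other over the shared regions (Spearman rho -0.18, n = 10497 regions of the same 4 libraries). Both were above the 75th percentile in 804 shared regions, while 843 paired such a SOX2 peak with CTCF at or below the 25th percentile and 722 had the reverse. At the edge of the rule, 45 shared regions overlapped by at most 10 bp and 38 SOX2-only regions ended within 10 bp of a CTCF region. Mitotic SOX2 was called at 3 and 0 of the 45 (6.67% and, for 0, a Wilson upper bound of 7.87%) and at 3 and 1 of the 38.

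In mitotic cells SOX2 was called at few shared regions, yet more often there than at SOX2-only regions. Mitotic SOX2 peaks covered 896 shared regions in replicate 1 (8.54%, 95% Wilson interval 8.02 to 9.09%) and 209 in replicate 2 (1.99%, 1.74 to 2.28%), against 844 SOX2-only regions in replicate 1 (2.05%) and 181 in replicate 2 (0.440%). Over all SOX2 regions the shares were 3.37% and 0.755%. Shared regions were therefore called 4.16 and 4.53 times as often as SOX2-only regions, with a mean difference of 4.02 ± 3.49 percentage points (SD, n = 2). Without asynchronous SOX2 replicate 2 in the choice of regions the mean difference was 2.40 points. Both mitotic libraries gave the same direction, which is the most that 2 libraries can show (exact permutation of signs, two-sided, p = 0.5, the smallest possible). Both replicates called 193 shared regions (1.84%) and 156 SOX2-only regions (0.379%), against 0.675% of all SOX2 regions. Seen from the lists, 50.9% and 53.9% of all mitotic SOX2 peaks fell on shared regions. Of all asynchronous SOX2 peaks 12.2% and 18.9% did, but these lists chose the regions. Their peaks found in a single library could not fall on a shared region, which lowers these shares by construction. Of all SOX2 regions 20.3% were shared.

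**Figure D2:**
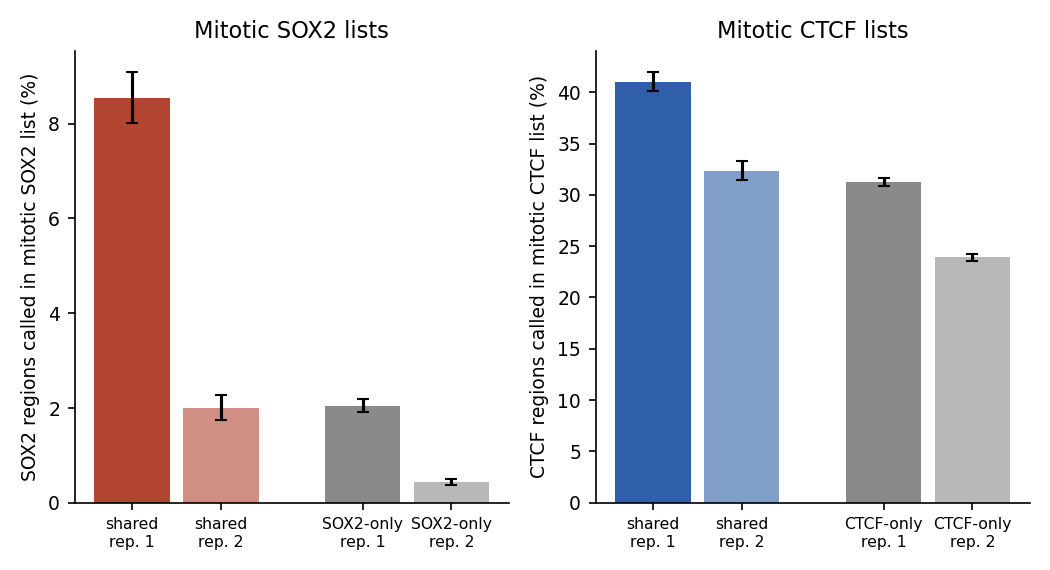
Share of SOX2 regions called in each mitotic SOX2 list (left, %) and of CTCF regions called in each mitotic CTCF list (right, %), with 95% Wilson intervals for counting error, in shared regions (coloured bars) and in regions of that factor alone (grey bars). The shared bars are higher in each of the 4 libraries, at 8.54% and 1.99% against 2.05% and 0.440% for SOX2 and at 41.0% and 32.4% against 31.2% and 23.9% for CTCF.

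Mitotic CTCF was called at many more of the same places. Of the CTCF regions that touch a shared region, 41.0% and 32.4% were called in the mitotic CTCF lists, against 31.2% and 23.9% of CTCF-only regions. Over all CTCF regions the shares were 33.0% and 25.4%. The ratio was 1.31 and 1.35 and the difference 9.11 ± 0.91 percentage points (SD, n = 2, exact permutation of signs, two-sided, p = 0.5, the smallest possible). Without asynchronous CTCF replicate 1 or 2 in the choice of regions the difference was 5.90 or 5.85 points, and without asynchronous SOX2 replicate 2 it was 14.0. Both replicates called 31.1% of the CTCF regions at shared regions and 23.0% of the CTCF-only regions, against 24.5% of all CTCF regions. Per shared region, with a mitotic CTCF call at any CTCF region that overlaps it, the mitotic lists called CTCF in 43.1% and 34.2%. They called SOX2 on the shared region itself in 8.54% and 1.99%. That is 33.4 percentage points more for CTCF, with no overlap between the libraries of the 2 factors (exact permutation test, two-sided, 2 against 2 libraries, p = 0.33, the smallest possible). With the mitotic CTCF peak required on the shared region itself, the difference was 29.7 points. The SOX2 libraries were also the shallower ones, and the part of depth or of the antibody in this difference was not tested.

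Strength and width were held alike in classes. Within 10 classes of asynchronous strength the excess of shared over SOX2-only regions in mitotic SOX2 was 6.65 and 1.56 percentage points, against 6.49 and 1.55 without classes, and within 10 by 10 classes of strength and width it was 5.03 and 1.25. For mitotic CTCF the excess of shared over CTCF-only regions was 5.06 and 3.57 points within the strength classes, against 9.76 and 8.47 without, and 1.94 and 1.04 points within the classes of strength and width. The excess in SOX2 was not alike in all strength classes. In the lowest, at or below the 25th percentile, mitotic SOX2 was called at 0.951% and 0.190% of shared regions, against 0.485% and 0.20% of SOX2-only regions, so replicate 2 was not higher there. Among regions above the 90th percentile of SOX2 strength, mitotic SOX2 was called at 22.2% and 10.0% of 1403 shared regions, against 5.49% and 2.12% of 5464 SOX2-only regions. Among regions above the 90th percentile of CTCF strength, mitotic CTCF was called at 93.7% and 88.4% of 1485 shared regions, against 88.5% and 79.6% of 3676 CTCF-only regions.

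Most shared regions with a mitotic call had it for CTCF. None of the 4 mitotic lists called 5375 shared regions (51.2%), and all 4 called 64 (0.610%). Both SOX2 lists and neither CTCF list called 111, and both CTCF lists and neither SOX2 list called 3149. At least 1 list of each factor called 448 (4.27%). Both mitotic CTCF lists called 33.2% of the 193 regions in both mitotic SOX2 lists (Wilson interval 26.9 to 40.1%), 33.9% of the 719 in 1 of them and 32.9% of the 9585 in neither. These shares lie within each other's counting error. With a call in at least 1 mitotic CTCF list instead, the share was 49.1% of the 912 regions in at least 1 mitotic SOX2 list (Wilson interval 45.9 to 52.4%) and 43.9% of the 9585 in neither (42.9 to 44.9%), and these intervals do not overlap. They cover counting error over regions of the same libraries and not the spread between libraries. CTCF was weaker at the SOX2-called regions, with a median percentile of 34.3 where both mitotic SOX2 lists had a call and 65.1 where neither had.

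Each factor's calls followed its own asynchronous strength. From the lowest to the highest class of CTCF strength, mitotic CTCF replicate 1 called 6.80%, 7.39%, 36.2%, 78.0% and 93.9% of shared regions, and replicate 2 called 2.39%, 2.80%, 23.1%, 62.9% and 88.9%. Within the top CTCF class the replicate 1 share stayed between 92.8% and 95.8% in every class of SOX2 strength. From the lowest to the highest class of SOX2 strength, mitotic SOX2 replicate 1 called 0.951%, 2.11%, 7.86%, 18% and 22.2%, and replicate 2 called 0.190%, 0.0316%, 0.433%, 3.30% and 10.0%. Among regions above the 90th percentile for SOX2, the 94 that were also above it for CTCF were called at 39.4% and 18.1%. The 480 with a CTCF peak of the lowest class were called at 22.5% and 10.8%. In every SOX2 class below the top, mitotic SOX2 replicate 1 had a lower share in the highest than in the lowest CTCF class. In the class over 50 to 75 these shares were 7.19% and 14.2%. Over all shared regions, replicate 1 called 7.65% in the highest and 14.0% in the lowest CTCF class. For replicate 2 these shares were 1.58% and 3.63%. At the 480 regions named above, mitotic CTCF was called in 2.29% and 1.04%, and the summits of the factors were a median of 98.5 bp apart.

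**Figure D3:**
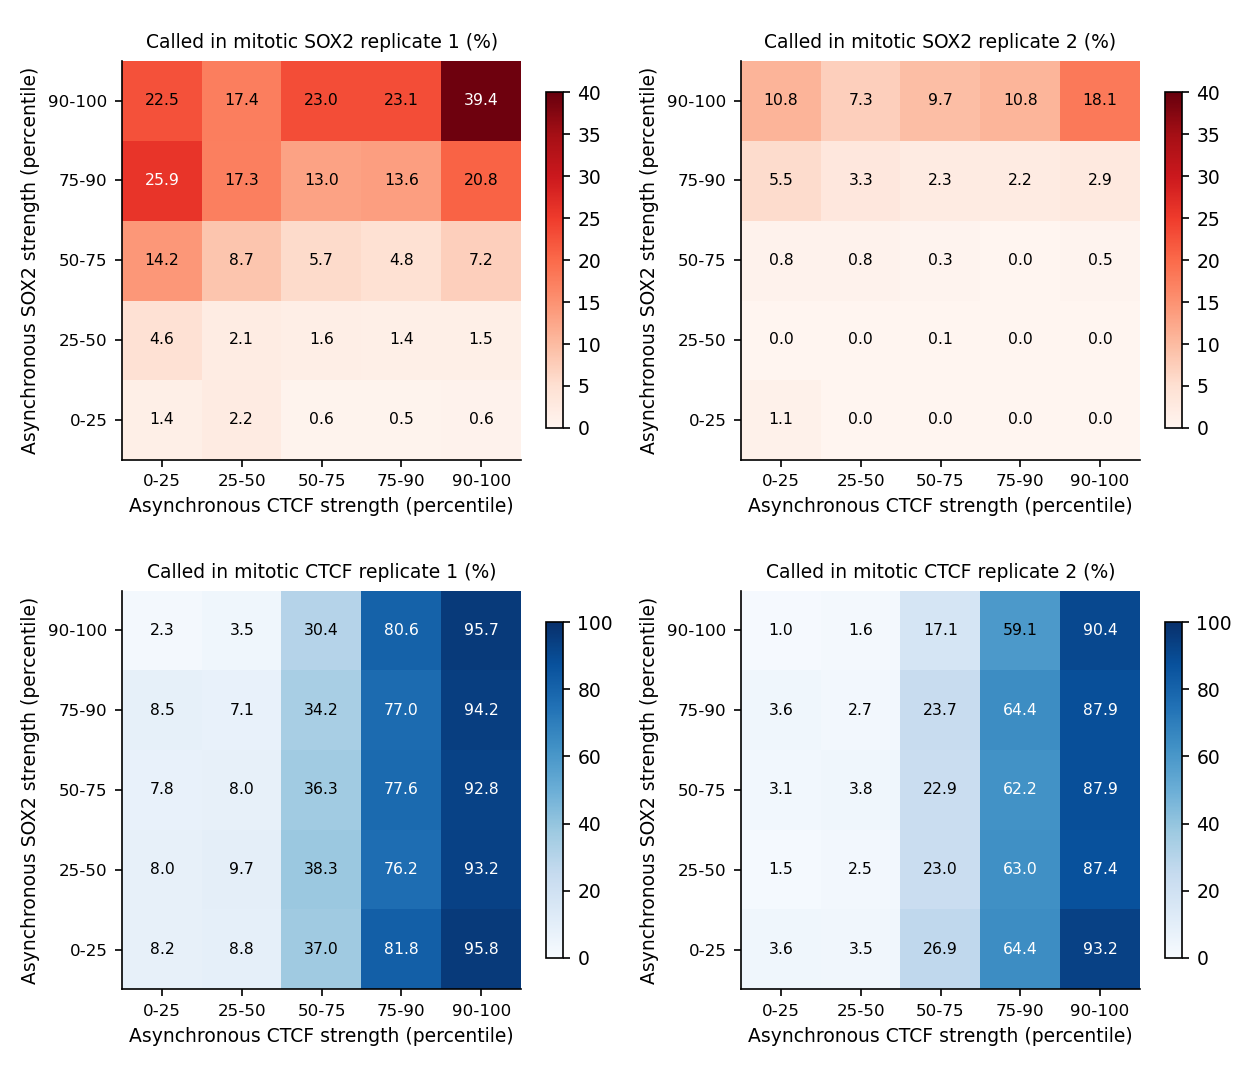
Share of shared regions called in each mitotic list (%, colour and number), by class of asynchronous CTCF strength (x axis, percentile of fold) and of asynchronous SOX2 strength (y axis, percentile of fold). The SOX2 panels change from bottom to top, up to 39.4% and 18.1% in the top right corner, and the CTCF panels change from left to right, up to 95.8% in replicate 1. Below the top row, the SOX2 replicate 1 share is lower in the right than in the left column.

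Regions with close summits were called less often than the others in mitotic SOX2 replicate 1 and hardly differed in replicate 2. In both mitotic CTCF lists they were called somewhat more often. Mitotic SOX2 was called at 6.33% and 1.92% of the 3379 shared regions with summits at most 100 bp apart, against 9.58% and 2.02% of the 7118 with more distant summits. Mitotic CTCF was called at 45.1% and 36.8% of the close and at 42.2% and 33.0% of the distant ones. The mean difference of close minus distant was -1.67 percentage points for SOX2 and 3.40 points for CTCF, each with the same sign in both libraries (exact permutation of signs, two-sided, p = 0.5, the smallest possible), and in SOX2 replicate 2 it was only -0.10. For CTCF it was 1.34 points without asynchronous SOX2 replicate 1 and 2.01 without asynchronous CTCF replicate 2 in the choice of regions. With peaks of a fold of at least 5 it was 0.16 points, and the 2 libraries did not share a sign. Regions with summits over 500 bp apart had the highest SOX2 shares, 13.3% and 2.87%, and were also the widest, with a median SOX2 width of 1204 bp against 600 bp at 0 to 25 bp. Within 5 by 5 classes of SOX2 strength and width the close regions were the higher ones, by 0.51 and 0.53 points. Both mitotic CTCF lists had their lowest share, 36% and 28.2%, at 200 to 500 bp, where median CTCF strength was also lowest, at the 51.4th percentile. Over 500 bp their shares were 47.3% and 36.6%, against 45.1% and 36.8% of all close regions.

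**Figure D4:**
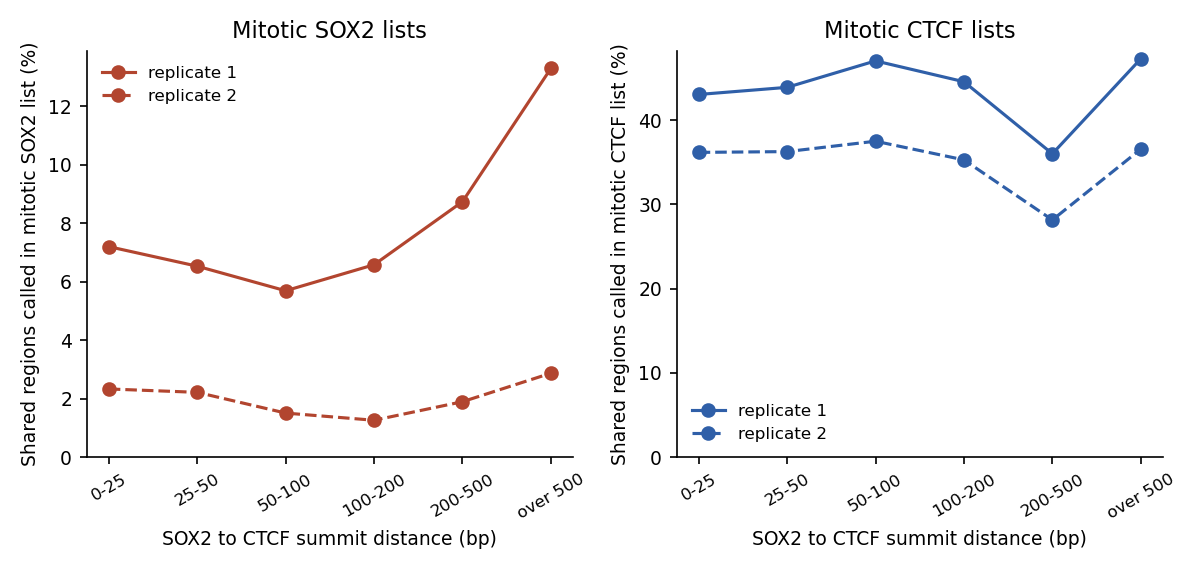
Share of shared regions called in each mitotic SOX2 list (left, %) and each mitotic CTCF list (right, %), by class of distance between the SOX2 and the CTCF summit (bp). The SOX2 lines reach 13.3% and 2.87% over 500 bp, and the CTCF lines dip to 36% and 28.2% at 200 to 500 bp.

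Most mitotic summits lay on the side of their own factor. At shared regions with summits over 100 bp apart, a mitotic SOX2 summit was nearer to the CTCF summit than to the asynchronous SOX2 summit of the other replicate in 138 of 682 regions in replicate 1 (20.2%, Wilson interval 17.4 to 23.4%) and in 16 of 144 in replicate 2 (11.1%, 7.0 to 17.3%). The asynchronous SOX2 summits of the same regions, measured the same way, were nearer to CTCF in 8.94% and 5.56%. Mitotic CTCF summits were nearer to the SOX2 summit in 6.44% and 5.91%, against 2.21% and 2.35% for asynchronous CTCF summits. The median distance to the factor's own asynchronous summit of the other replicate was 83.5 and 50.5 bp for mitotic SOX2, against 37.5 and 25.5 bp for asynchronous SOX2. For CTCF it was 26 bp in both mitotic libraries, against 16 and 15 bp. By this measure mitotic summits lay farther from the asynchronous summit of their factor than asynchronous ones did. The asynchronous summits also helped to choose these regions, through the limit of 100 bp, so the 2 sides are not independent and alike.

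Shared regions lay at gene starts more often than SOX2-only regions. A region within 1 kb of the start of a protein-coding gene was found for 24.7% of shared and 11.2% of SOX2-only regions, a difference of 13.5 percentage points (Newcombe interval for counting error 12.6 to 14.4). For CTCF the shares were 24.6% at shared and 5.81% in CTCF-only regions. Another 36.9% of shared regions lay elsewhere inside a protein-coding gene and 38.4% outside of one. Width moves with this comparison, and within 10 by 10 classes of SOX2 strength and width the difference was 7.21 points. At gene starts the shared regions had their summits farther apart, a median of 283.5 bp against 169.5 bp inside genes and 154.5 bp outside. They were wider there (939.5 bp against 708.5 and 731 bp), and CTCF was weaker, at a median percentile of 43.8 against 65.9 and 70.0.

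Mitotic SOX2 was called at a higher share of shared regions both at gene starts and away from them. At gene starts mitotic SOX2 was called at 16.8% and 2.62% of 2592 shared regions, against 9.32% and 1.69% of 4604 SOX2-only regions. In replicate 2 the Wilson intervals overlapped there (2.07 to 3.31% at shared and 1.36 to 2.11% at SOX2-only regions). Inside genes the shares were 5.87% and 1.76% of 3870 shared regions, against 1.17% and 0.255% of 17281 SOX2-only regions. Outside genes they were 5.80% and 1.81% of 4035 shared regions, against 1.10% and 0.306% of 19290 SOX2-only regions. Mitotic CTCF ran the other way between places, with 36.6% and 26.3% at shared gene starts, 41.2% and 32.3% inside genes and 43.7% and 36.3% outside. At gene starts its lead over CTCF-only regions (34.0% and 24.6%) was smallest, and the Wilson intervals of the 2 groups overlapped in each library.

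**Figure D5:**
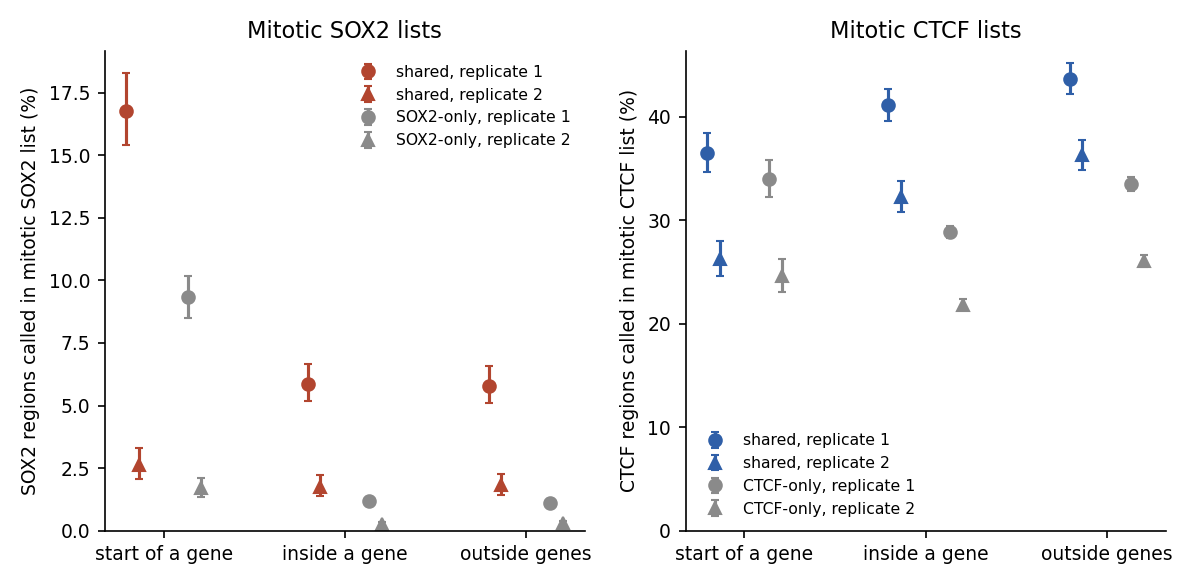
Share of SOX2 regions (left, %) and CTCF regions (right, %) called in the mitotic lists of the same factor, by place, with circles for replicate 1, triangles for replicate 2, colour for shared regions, grey for regions of 1 factor alone and 95% Wilson intervals. SOX2 is highest at shared gene starts, at 16.8% in replicate 1, while CTCF is highest at shared regions outside genes, at 43.7% and 36.3%.

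Mitotic calls were frequent near transfer RNA genes. These are short genes read by RNA polymerase III, and 111 shared regions lay within 1 kb of 1 of them. Mitotic SOX2 was called at 53.2% and 14.4% of these, against 8.06% and 1.86% of the other shared regions, and at 34.0% and 4.26% of the 94 SOX2-only regions near a tRNA gene. Mitotic CTCF was called at 81.1% and 67.6% of the shared regions near tRNA genes, against 42.7% and 33.8% of the others. Without the regions near tRNA genes, shared regions exceeded SOX2-only regions in mitotic SOX2 by 6.08 and 1.43 points. The X chromosome had few shared regions. Of its 997 SOX2 regions 89 were shared, or 8.93%, against 20.5% on the autosomes, and mitotic CTCF was called at 23.6% and 12.4% of them, against 43.3% and 34.4% on the autosomes. Their CTCF was weaker, with a median percentile of 49.9 against 63.4.

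The strongest shared regions in all 4 mitotic lists lay at or in genes of varied function. The strongest by the mean percentile of both factors, chr1:86524537-86527940, overlaps the start of Ptma, which encodes the nuclear protein prothymosin alpha. SOX2 fold there was 4.99 and 6.59 in mitotic and 16.6 and 17.5 in asynchronous cells, and CTCF fold was 7.99 and 8.29 in mitotic and 19.7 and 19.9 in asynchronous cells. All values lay well above background, though the summits were 1803 bp apart in a wide region. A region in Asic2, chr11:81612314-81614339, a gene of an acid-sensing ion channel, had a SOX2 fold of 14.8 and 9.46 in mitotic and 35.7 and 32.7 in asynchronous cells. Others lay in Slco5a1, a transporter gene, in Marcks, whose product is a substrate of protein kinase C, in Mkrn1, a ubiquitin ligase gene, at the start of Midn, which encodes the nuclear protein midnolin, and in Gnai2, the gene of an inhibitory G protein subunit. Summit distances in these 5 ran from 19 bp in Mkrn1 to 1862.5 bp in Marcks.

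Among the regions called in both mitotic SOX2 lists and neither mitotic CTCF list, the strongest, chr6:39444923-39446758, lay 15.6 kb from Dennd2a, a gene of a regulator of Rab GTPases. SOX2 fold was 4.65 and 7.90 in mitotic and 23.8 and 23.1 in asynchronous cells, and CTCF, with 13.3 and 11 in asynchronous cells, had no mitotic peak. A region 6.97 kb from Cbfa2t2, the gene of a corepressor that works with PRDM14 in pluripotent cells, had SOX2 fold of 8.81 and 5.86 in mitotic and 21.3 and 23.9 in asynchronous cells. The next were near Akr1b8, an aldo-keto reductase gene, in Abcg1, which encodes a cholesterol transporter, in Cdk5r1, an activator of the kinase CDK5, near N4bp1, and in Thra, a thyroid hormone receptor gene, and Ttyh1, a membrane protein gene. CTCF strength in these 7 was moderate, between the 63.0th percentile at Ttyh1 and the 73.1st at Cbfa2t2.

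The regions called in both mitotic CTCF lists and neither mitotic SOX2 list include some with very strong asynchronous SOX2 peaks. The strongest, chr15:77337910-77339906, was 29.5 kb from Rbfox2, a splicing factor gene. CTCF fold was 19 and 11.1 in mitotic and 20.6 and 28.3 in asynchronous cells, and SOX2 fold was 23.8 and 21.6 in asynchronous cells with no mitotic peak. A region in Twf2, a gene of the actin cytoskeleton, had CTCF fold of 25.6 and 18.5 in mitotic and 27.2 and 34.5 in asynchronous cells. The seventh by rank, chr3:34759630-34762206, lay 107 kb from Sox2 itself, where the distal control region of Sox2 is known to be. CTCF fold there was 5.76 and 4.16 in mitotic and 13.7 and 15.9 in asynchronous cells, SOX2 fold was 19.6 and 17 in asynchronous cells, and the summits were 1381 bp apart. The other 5 were near Znfx1, which encodes an RNA helicase, in Rasa4 and Evi5l, genes of GTPase-activating proteins, at the start of Prickle1, a planar cell polarity gene, and in Akap12, a kinase anchoring gene.

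The strongest shared regions in none of the mitotic lists were led by chr2:104219709-104220705 in D430041D05Rik, with SOX2 fold of 13.0 and 14.7, CTCF fold of 13.2 and 13.9 and summits 13 bp apart in asynchronous cells. Next came a region 12.6 kb from Chrna7, a nicotinic receptor gene, with SOX2 fold of 28.9 and 26.2 and CTCF fold of 12.4 and 10.5. The others were in Cadps, a gene of vesicle release, near Mrpl36, a mitochondrial ribosome gene, near Cbln4, a gene of a synapse organiser, in Ninj2, near Llph and in Virma, a gene of the RNA methyltransferase complex. As a class, the regions in no mitotic list had a median joint percentile of 50.4, against 89.0 in those of all 4 lists. Among the 64 regions in all 4 mitotic lists, 3 had a fold under 3.5 in every asynchronous list, at chr15:75085515-75087026, chr17:39843022-39848808 and chr18:3004274-3006537. Their folds in the mitotic lists ran from 1.28 to 1.86.

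Shared regions were common around genes of pluripotency, though not only there. Within 50 kb of the 30 listed pluripotency genes there were 329 SOX2 regions, of which 99 were shared, or 30.1%, against 20.3% of all SOX2 regions. The share was higher at genes of cohesin, condensin and CTCF (30.8%) and of ribosomal proteins (38.3%), so it is not particular to pluripotency genes. Windows on unlisted genes were not counted, and shared regions lie at gene starts more often than SOX2-only regions. Both mitotic CTCF lists called 29 of the 99 (29.3%), against 32.9% of all shared regions, and both mitotic SOX2 lists called 3, against 193 (1.84%) of all shared regions. Pou5f1, the gene of OCT4, had 9 shared among its 15 SOX2 regions, with 4 in both mitotic CTCF lists and 1 in both mitotic SOX2 lists, and a median summit distance of 84 bp. Fgf4, a classical SOX2 and OCT4 target that encodes a growth factor, had 6 of 18, Sox2 had 6 of 14, Tbx3, a regulator of self-renewal, had 6 of 15 and Trim28, a corepressor gene, had 6 of 13. Tfcp2l1, Nr5a2 and Nr0b1 were among those with none. The lists were written with earlier results of these data known, so these counts are a description.

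Genes for chromosome structure carried shared regions as well. Around 22 genes of cohesin, condensin and CTCF 40 of 130 SOX2 regions were shared (30.8%), and both mitotic CTCF lists called 12 of them (30%, against 32.9% of all shared regions). Ctcf had 5 shared regions among 9, of which 3 were in both mitotic CTCF lists and 2 in 1 of them. Top2a, the gene of topoisomerase II alpha, had 6 among 8. Ctcfl, the germline relative of Ctcf, had 3 among 5, Mau2, a gene of the cohesin loader, 3 among 5 and Ncapd2, a condensin gene, 3 among 11. Around 20 Polycomb and trithorax genes 59 of 212 were shared (27.8%), led by Cbx7 with 8, Cbx2 with 7 and the methyltransferase genes Kmt2b and Kmt2d with 6 each. Ribosomal protein genes had the highest share of the 10 lists, 80 of 209 (38.3%), led by Rpl3 with 9 and Rps18 with 8.

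Signalling and lineage genes were closer to the share of all SOX2 regions. Around 26 genes of FGF, Nodal, LIF and BMP signalling 60 of 249 were shared (24.1%), with 6 at Fgf4, 5 each at Skil and Smad7, which restrain TGF-beta signalling, and 4 each at the BMP receptor gene Bmpr1a and at Etv4, a target of FGF signalling. At Etv4 both mitotic SOX2 lists called 1 of the 4 and a single one called 2. Of all 10497 shared regions 193 and 719 had such calls, and 4 regions are too few for a comparison. The shares were 25% at mesoderm and endoderm genes, led by Eomes, Gsc and Hand1 with 3 each, 20.7% at neural genes, led by Hes5 and Neurog2 with 3 each, and 25.4% at trophoblast genes, led by Cdx2 with 5, Gata3 with 4 and Eomes, also on this list, with 3. Imprinted genes had 25 shared among 106 (23.6%), led by Airn, Grb10 and Mest with 3 each. The X inactivation center had 3 among 26 (11.5%), against 8.93% of the SOX2 regions of the whole X chromosome. None of the 3 was in a mitotic list of either factor, and 3 regions are too few for a comparison. Mitotic CTCF was called at 23.6% and 12.4% of all shared regions on that chromosome.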

How the data were processed

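Peak lists of 8 ChIP-seq libraries were used, SOX2 and CTCF in mitotic and asynchronous mouse embryonic stem cells with 2 libraries each. The submitters' processing notes name build mm10, the peak caller MACS2 2.1.1.20160309, the aligner BWA 0.7.17, CASAVA 1.4 and SAMtools. Which options and control libraries served is not given in the sources used here. For each library the authors deposited a list with a fold over local background (a ratio), a −log10 p-value, a −log10 q-value and a summit offset for each peak. Lists called separately depend on depth, so a comparison of conditions asks whether a region has a peak.

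Merging, overlaps and summit distances were computed with Python 3.11.15, pandas 2.3.3 and SciPy 1.17.1, tested on simulated data and checked with bedtools 2.31.1. The members and the gene lists were chosen with earlier results of these data known. Background coverage was solved from fold and −log10 p under a Poisson model in up to 2000 peaks per list, and coverage came out whole within 0.1 reads in 100% of them. Dividing the lowest background by the shortest peak gave the depth per 100 bp. Wilson and Newcombe intervals (95%) cover counting error only, and neighbouring regions are not independent. Gene positions, from RefSeq on GRCm38.p6, covered 21883 protein-coding genes, 17491 of them with a start in the table, and 408 tRNA genes. Regions at the starts of the other genes count as inside or outside genes. Genes near named regions are the protein-coding genes at or nearest to them. Regions named are the 8 strongest in each of 4 classes of mitotic calls, and genes named are up to 5 per list with the most shared regions. A region that this rule names is not reported here. The pluripotency genes named without a shared region and the 3 regions of low fold were named after their values were seen. Of 203 listed genes 3 (Nespas, Linx and Xite) matched no entry. Alternatives cover overlap, thresholds, libraries left out, summit choice, strength, width and gene windows.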

Additional observations from a re-analysis of the deposited data

Results flagged for a closer look

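The differences between close and distant summits had opposite signs for the 2 factors. Shared regions with summits at most 100 bp apart were called less often than distant ones in both mitotic SOX2 lists, by -3.25 and -0.10 percentage points, and more often in both mitotic CTCF lists, by 2.94 and 3.86 points. The CTCF difference minus the SOX2 difference was 5.07 points. This difference between the factors was not tested. On the CTCF side, regions with summits over 500 bp apart were called in 47.3% and 36.6%, against 45.1% and 36.8% of the close ones. The SOX2 side rests on replicate 1, since replicate 2 was positive with a limit of 50 bp (0.34 points) and over 1 kb from gene starts (0.10 points), where the exact permutation of signs gave p = 1.0. Within classes of strength and width both differences were positive, at 0.51 and 0.53 points for SOX2 and 1.4 and 2.41 points for CTCF.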

How the results depend on the processing

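Of 128 alternative values, 118 planned and 10 chosen after seeing the data, 100 counted as unchanged, 27 moved and 1 reversed. Unchanged meant the same sign for the differences in mitotic shares whatever their size, within 1.5 times for the number of regions, within 1 SD for the distance (4.12 bp over 4 library pairs) and for the summit side (6.45 points over 2 libraries), and within the Newcombe interval for gene starts. The reversed value is mitotic SOX2 at close minus distant summits, 0.52 points within 5 by 5 classes of strength and width. Without 1 library in turn it ranged between -3.25 and -0.10, and replicate 1 carried nearly all of it. The 10497 shared regions became 6626 with a −log10 q of at least 5, 1730 with a fold of at least 5 and 24222 with regions of either asynchronous library, and 11883 to 17846 without 1 asynchronous library, the highest without SOX2 replicate 2. The median distance was 151.5 bp at 50% overlap, 203 bp at the q limit, 296.2 bp at the fold limit, 156.5 bp with either library, 98 bp for the nearest summits and 158.5 to 180 bp without 1 library. Mitotic SOX2 summits nearer CTCF were 0.862% at the fold limit and 9.79% at the q limit, against 15.7% without a limit, and 11.1% to 20.2% without 1 library. The difference at gene starts was 12.5 points at 50% overlap, 11.9 at the q limit, 9.22 at the fold limit, 14.6 with either library, 12 within strength classes, 7.21 within strength and width classes, 14.4 within 2.5 kb, 12.1 for the summit, 17.5 for either gene end and 10.3 to 16.3 without 1 library. The causes were not tested, except that the limits and single libraries change the regions by construction.

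Shared minus SOX2-only in mitotic SOX2 stayed positive in all 16 alternatives (1.55 to 6.49 points, the extremes being each mitotic library alone), shared minus CTCF-only in mitotic CTCF in all 16 (1.49 to 14.0, the lowest within strength and width classes), and CTCF minus SOX2 in all 15 (27.2 to 38.2). Without 1 library they ranged over 1.55 to 6.49, 5.85 to 14.0 and 27.2 to 38.2, and close minus distant in mitotic CTCF, 0.16 to 3.99 in all 17, over 1.34 to 3.86. The 0.16 came at the fold limit, where the 2 libraries did not share a sign. The replicate numbers are not known to pair the samples. With a replicate block, which sets asynchronous and mitotic lists of the same number against each other, the values were 3.04 and 10.6 points for shared minus other regions in SOX2 and CTCF, 32.1 for CTCF minus SOX2, and -1.35 and 0.97 for close minus distant summits.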
